A study of Mus musculus with 4 samples.

Results

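Genes of the MHC class II antigen presentation pathway were described across the cells of mouse tumours that lacked or carried Hnrnpa2b1 in the injected cancer cells. The set held H2-Aa, H2-Ab1, H2-Eb1, H2-DMa, H2-DMb1, H2-DMb2, H2-Oa, Cd74 and Ciita. The 9 genes were chosen by symbol, and 9 of 9 were found among the 55450 genes listed in the single-cell count matrices. The samples were 4 subcutaneous tumours grown in the left flank of C57BL/6J mice aged 8 weeks from MC38, a mouse colon carcinoma line. There were 2 tumours of MC38 cells with Hnrnpa2b1 knocked out (KO tumours 1 and 2) and 2 of unedited MC38 cells (WT tumours 1 and 2). The labels give no edit of the host mice, so the host cells of all 4 tumours shared 1 genotype as far as stated. The labels do not say whether the KO line was 1 clone, nor which part of Hnrnpa2b1 was edited. They state no sort of the digested cells.

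MHC class II molecules are pairs of an alpha and a beta chain that show peptides of engulfed proteins to CD4+ T cells. Dendritic cells, macrophages and B cells carry them at rest or after activation, and many other cells can be made to carry them by interferon gamma. The invariant chain, Cd74, guards the peptide groove until it is cut away, H2-DM then exchanges the remaining fragment for other peptides, and H2-O holds H2-DM back. Ciita is the coactivator that the promoters of these genes need. It binds no DNA itself but docks on a complex of factors (Rfx5, Rfxap, Rfxank, the NF-Y subunits and Creb1) that sits on short motifs called the X and Y boxes. C57BL/6 mice lack a working H2-Ea gene, so the beta chain made from H2-Eb1 has no alpha partner of its own in these animals.

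The promoter stretches that hold these motifs are shown for 4 members, since Ciita is known to act on class II genes through proteins bound at these motifs. The RefSeq promoter table for GRCm38.p6, which runs from 250 bases before to 50 bases after each start, covered 6 of the 9 members. The letters TGATTGG (Y box) and AACNGATG (X box) were searched on both strands, and these letters were chosen after the sequences had been looked at. The Y box letters were present in 5 members and the X box letters in 3. Among all 32851 promoters of the table, 7.82% held the Y box letters, 2.32% the X box letters and 0.186% both. Each stretch below reads 5′ to 3′ on the gene's own strand and ends with the Y box, and capitals mark the searched letters.
H2-Aa, chr17:34287867-34287918, minus strand: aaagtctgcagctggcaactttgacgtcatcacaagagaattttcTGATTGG
H2-Eb1, chr17:34305761-34305812, plus strand: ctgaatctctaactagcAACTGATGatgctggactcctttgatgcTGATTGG
H2-DMb2, chr17:34145112-34145163, plus strand: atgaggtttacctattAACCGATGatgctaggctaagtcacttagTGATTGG
H2-Oa, chr17:34092289-34092340, plus strand: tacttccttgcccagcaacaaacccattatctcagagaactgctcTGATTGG
Counted from the RefSeq start, the Y box began at base -50 in H2-Aa, -61 in H2-Eb1, -92 in H2-DMb2 and -45 in H2-Oa. The X box began at base -89 in H2-Eb1 and -121 in H2-DMb2. H2-DMb1 held both motifs too, with the Y box at -63 and the X box at -92. Neither set of letters was in the 2 windows listed for H2-DMa. A match is a match of letters and was not tested as a binding site. Promoters of H2-Ab1, Cd74 and Ciita were not used here.

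In the GENCODE annotation of the same build, 7 members lie in the H2 region of chromosome 17. H2-Oa spans bases 34092340 to 34095234, H2-DMa 34119541 to 34139101, H2-DMb2 34143307 to 34151555 and H2-DMb1 34153072 to 34160230, all on the plus strand. H2-Ab1 spans 34257689 to 34269419 and H2-Eb1 34305867 to 34316674 on the plus strand, and H2-Aa spans 34282744 to 34287823 on the minus strand. Cd74 lies on chromosome 18 from 60803848 to 60812652, and Ciita on chromosome 16 from 10480059 to 10528418, both on the plus strand. H2-DMb1 and H2-DMb2 are near copies. Of the 50-base words in the last 500 bases of their transcripts, 20.4% of those of H2-DMb1 and 0% of those of H2-DMb2 also occurred in the other gene, so their UMIs could be split between them to a limited degree. Ciita shares 25888 bases with Dexi on the opposite strand. The sources used here do not give how strand was used in counting, so Dexi is given beside the Ciita results.

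The libraries held 114136609 and 132490304 unique molecular identifiers (UMIs, the counted molecules) in KO tumours, and 153162562 and 123655955 in WT tumours. After filters and removal of likely doublets, 8648 and 8771 cells of KO tumours and 11344 and 10173 cells of WT tumours were analysed. Pairs of libraries shared 23 to 43 cell barcodes. Classes came from clusters made without the 9 members. Mononuclear phagocytes (macrophages and monocytes; 14 of 14 markers held by at least 10% of cells) numbered 3342 and 2514 in KO tumours and 1531 and 1652 in WT tumours. Dendritic cells, led by the mature-cell genes Ccl22, Il4i1, Ccl17 and Ccr7, numbered 125 and 121 in KO and 98 and 40 in WT. Fibroblasts numbered 380 and 266 in KO and 202 and 269 in WT, and endothelial cells 56 and 80 in KO and 55 and 19 in WT. The clusters with under 1 UMI per 10000 of Xist, and likewise of Ptprc, the gene of the pan-leukocyte protein CD45, stand here for the tumour cells and are called Xist-low cells. They numbered 1364 and 2681 in KO and 8602 and 7090 in WT, and only 1 of 9 epithelial markers was held by at least 10% of them. Their median depth was 38600 and 31487 UMIs per cell in KO, against 11894 and 11722 in WT. As a check of the genotype, Hnrnpa2b1 stood at 380.8 and 318.5 CPM (UMIs per 1000000 UMIs of the summed cells, here not scaled further) in KO Xist-low cells and at 549.7 and 544.8 in WT Xist-low cells. In phagocytes, which are host cells, it stood at 410.9 and 326.8 in KO tumours and 411.7 and 440.3 in WT tumours. A 3′ count outside an edited part need not fall. UMIs were summed per tumour and class, so that n was 2 tumours a group in every comparison. Where not said otherwise, levels are CPM after scaling by TMM (trimmed mean of M values), and fold changes are log2 of KO over WT from edgeR's quasi-likelihood test with Benjamini-Hochberg adjustment over all genes tested and a threshold of 0.05. The p-values measure the spread between these tumours alone.

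H2-Aa averaged highest in dendritic cells, then in phagocytes, endothelial cells, fibroblasts and Xist-low cells. Dendritic cells had 9916 and 9890 CPM of H2-Aa in KO tumours and 6641 and 8088 in WT tumours. Phagocytes had 3564 and 3324 in KO and 3048 and 2839 in WT, below every dendritic value. Endothelial cells had 203 and 211 in KO and 51.5 and 297 in WT, and fibroblasts had 86.5 and 46.1 in KO and 73.4 and 72.0 in WT. The endothelial value of WT tumour 1 lay within the fibroblast range, so these neighbours in the order were not separated in every tumour. Xist-low cells had 96.6 and 53.1 in KO and 43.8 and 29.6 in WT, which overlapped the fibroblast values. H2-DMb2 and H2-Oa set dendritic cells further apart. H2-DMb2 was at 155 to 199 CPM in the 4 dendritic sums, against 9.47 to 21.9 in the phagocyte sums, and H2-Oa at 69.7 to 187, against 2.45 to 4.24.

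**Figure D1:**
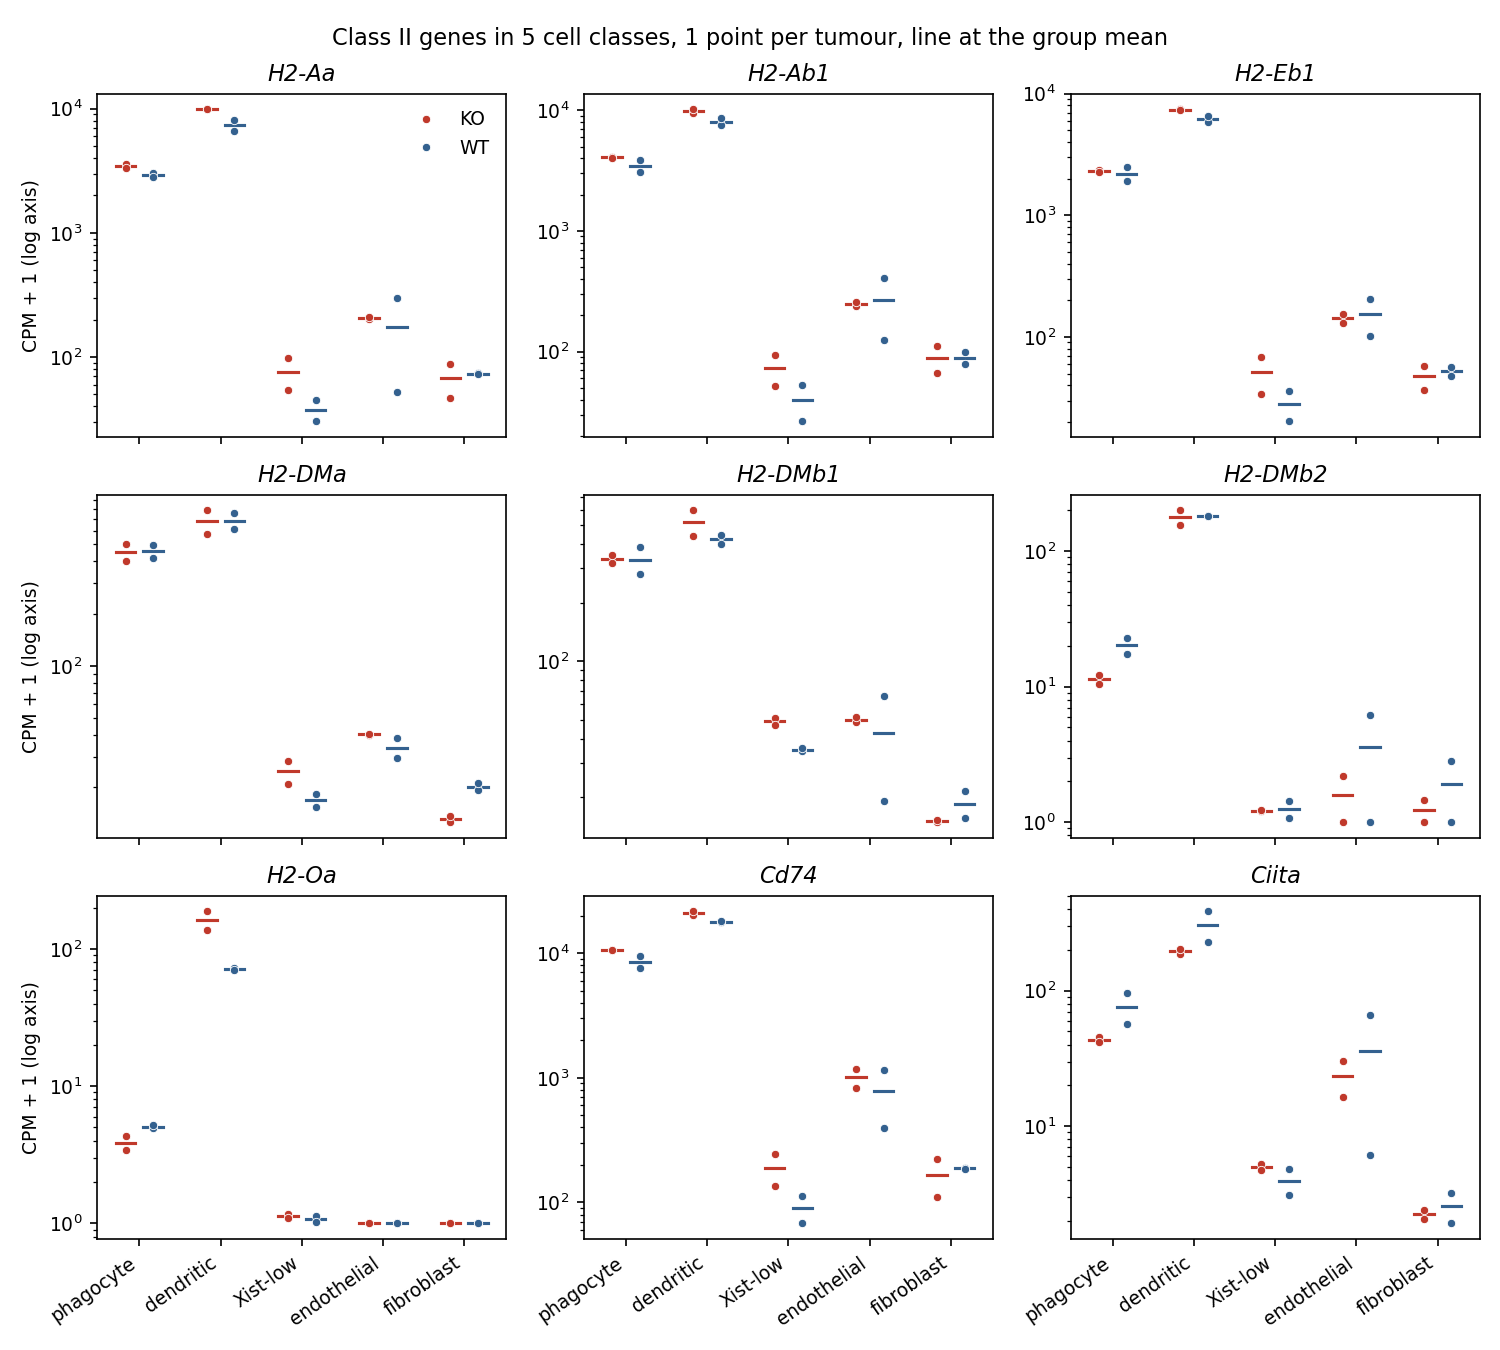
Level of each member in 5 cell classes, in CPM plus 1 on a log axis, with KO tumours left of WT tumours, 1 point per tumour and a line at the group mean. Dendritic cells stood highest for every member, and phagocytes stood above the remaining classes within each tumour. The Ciita point of endothelial cells of WT tumour 2, from 7 molecules, lay above the phagocyte points of the KO tumours and of WT tumour 1. The Ciita points of KO phagocytes lay below both WT phagocyte points.

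In phagocytes as a whole, the classical chains and Cd74 did not pass the test, while H2-DMb2 fell. All 9 members passed the filter on low counts, and 1 of 9 was called, close to the 10.1% of the 13696 genes tested in this class. The number called therefore did not set the members apart from other genes. By an unadjusted p under 0.05 there were 2 members (H2-DMb2 and Ciita), and DESeq2 called Ciita alone. The median log2 fold change was 0.02 over the members and -0.02 over all genes. In sums over a class, fewer cells of a kind and less RNA per cell cannot be told apart. RNA free in the suspension (free RNA), estimated from stromal genes, made up 6.31% and 5.06% of the phagocyte sums in KO. In WT it made up 16.4% and 14.1%, and its part in the levels was not tested.

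H2-Aa, the alpha chain of the I-A molecule, had 3564 and 3324 CPM in KO phagocytes and 3048 and 2839 in WT phagocytes. Both KO values were above both WT values, as they were for 28.6% of all genes, and the log2 fold change of 0.23 gave an adjusted p of 0.624. Its beta chain partner H2-Ab1 had 4101 and 4057 in KO and 3850 and 3107 in WT, also without overlap and also not called (0.23). H2-Eb1, whose alpha partner is missing in this strain, had 2353 and 2264 in KO and 2495 and 1906 in WT, and the groups overlapped (0.07). Cd74, the invariant chain, had 10615 and 10628 in KO and 9467 and 7657 in WT. The KO values lay above the WT values, with a log2 fold change of 0.31 ± 0.33 (SE) and an adjusted p of 0.585. H2-DMa and H2-DMb1, the chains of the peptide exchanger H2-DM, overlapped between the groups, with log2 fold changes of -0.01 and 0.02.

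H2-DMb2, the other beta chain gene of H2-DM, had 11.1 and 9.47 CPM in KO phagocytes and 21.9 and 16.4 in WT phagocytes. It fell, with a log2 fold change of -0.90 ± 0.22 (SE) and an adjusted p of 0.0440. Both KO values were below both WT values, as was true of 30.3% of all genes. The call was lost without KO tumour 1, without KO tumour 2 and without WT tumour 1, in DESeq2 (adjusted p = 0.0506), and with doublets kept (0.133). It was also lost with free RNA subtracted, with classes clustered at resolution 2.0, and without a shallow cluster of which 47.3% were scored as doublets. Phagocytes led by Ear2 and Aldh1a2 made up 2.99% and 0.60% of the class in KO tumours and 3.85% and 4.18% in WT tumours. They held 110 of 282 and 7 of 155 H2-DMb2 molecules in KO and 51 of 185 and 50 of 112 in WT. The part of these cells in the fall was not tested. Dendritic markers, 0 of 11 of which were held by 10% of phagocytes, summed to 37.9 and 23.4 CPM in KO phagocytes and 55.1 and 60.3 in WT phagocytes, and their part in the result was not tested. H2-Oa, the alpha chain of the H2-DM inhibitor H2-O, had 2.45 and 3.30 in KO and 3.92 and 4.24 in WT, and was not called (adjusted p = 0.343).

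Ciita had 44.5 and 40.5 CPM in KO phagocytes and 55.8 and 94.5 in WT phagocytes. The groups did not overlap, and WT tumour 2 was the highest. The log2 fold change was -0.82 ± 0.25 (SE), from 1128 and 664 counted molecules in KO and 470 and 647 in WT, with an adjusted p of 0.0834 in edgeR and 0.0452 in DESeq2. Ciita was called without WT tumour 1 (-1.14, adjusted p = 0.0304) and not without WT tumour 2 (-0.37, adjusted p = 0.172). At a depth thinned to 1000 UMIs per cell, 4.47% and 4.22% of KO phagocytes and 6.60% and 10.1% of WT phagocytes held a Ciita UMI. Without thinning the shares were 21.1% and 18.4% in KO, against 21.2% and 23.4% in WT, where median depth was 6826 and 5651 UMIs in KO and 4488 and 2971 in WT. T and NK cells, which should hold little Ciita in mice, had thinned shares of 0.229% and 0.06% in KO and 0.386% and 0.481% in WT at median depths of 3940 and 2852 UMIs in KO and 2002 and 2169 in WT. Dexi, which overlaps Ciita, had 9.16 and 10.6 CPM in KO phagocytes and 11.9 and 14.2 in WT phagocytes.

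The phagocytes were split into 10 states by clustering, each called by its leading genes. The mix of states differed between the groups. Slpi and Inhba cells made up 49.1% and 46.6% of phagocytes in KO tumours and 2.02% and 10.7% in WT tumours. Mmp12 and Scd2 cells made up 5.30% and 6.09% in KO and 53.0% and 38.6% in WT. A state led by mt-Tw, Impact and Jmy, not tested because 17 WT cells of 1 tumour fell under the minimum of 20, made up 22.1% and 21.4% in KO and 1.11% and 1.82% in WT. Since the states were defined from the same cells, these shares are descriptions.

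Within states, Ciita had a negative fold change in 6 of the 6 states tested, and both KO tumours lay below both WT tumours in 4 of the 6 (Slpi and Inhba, Mmp12 and Scd2, Ifitm6 and Plac8, and Ifit1bl1 and Ifit3b cells, where 17%, 19.9%, 21.7% and 22.2% of all genes did so). The states share the same tumours, so they are not independent repeats. Slpi and Inhba cells had 36.4 and 49.3 CPM of Ciita in KO and 62.0 and 91.8 in WT. Ciita fell there, as 1 of 9 members tested beside 1.59% of all genes, with a log2 fold change of -1.01 ± 0.25 (SE) and an adjusted p of 0.00562. WT tumour 1 contributed 8 counted molecules from 31 cells, against 514 and 385 molecules in KO and 69 in WT tumour 2. The call was lost when any 1 tumour was left out (adjusted p between 0.188 without WT tumour 1 and 0.999 without KO tumour 1), with the tumour number as a block (0.701) and in DESeq2 (1.00). Without WT tumour 2 the log2 fold change was -0.52. In these cells Dexi had 10.1 and 8.71 CPM in KO and 15.5 and 21.3 in WT, with a log2 fold change of -1.10 and an adjusted p of 0.315, and its share in the Ciita value was not tested.

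The second call was in Ifitm6 and Plac8 cells, a state also led by Ly6c2. Ciita had 97.6 and 91.1 CPM there in KO and 178 and 211 in WT, and both KO values were below both WT values. It fell by 1.06 on the log2 scale, with an SE of 0.26 and an adjusted p of 0.0472, as 1 of 7 members tested beside 1.12% of all genes. Without WT tumour 1 the adjusted p was 0.00273, and without each of the other tumours it was 0.103 to 0.896. DESeq2 gave 0.299 and total-count scaling 0.0658. In the other 4 states tested edgeR called 0 members, with 1 or 2 at an unadjusted p under 0.05 in each, and DESeq2 called 0. In Mmp12 and Scd2 cells Ciita had 36.8 and 65.7 CPM in KO and 75.2 and 102 in WT, where 0.0707% of genes were called. In Ifit1bl1 and Ifit3b cells, led by interferon-induced genes, it had 12.7 and 21.9 in KO and 42.4 and 65.2 in WT, where 0.284% were called, but the counts were only 12 and 9 molecules in KO and 5 and 10 in WT. In Syngr1 and Ccl12 cells (5.99 and 14.9 in KO, 24.9 and 11.9 in WT; 1.24% called) and in Cp and Gas6 cells (79.6 and 156 in KO, 133 and 232 in WT; 5.8% called) the groups overlapped.

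The classical chains and Cd74 went different ways in different states, and none was called in any of them. Cd74 had 10200 and 14438 CPM in KO Slpi and Inhba cells and 11612 and 13539 in WT, and its log2 fold change was -0.03. The lowest levels of Cd74 were in Syngr1 and Ccl12 cells, with 1863 and 3859 in KO and 6273 and 2593 in WT, and the groups overlapped. The highest levels were in Cp and Gas6 cells, with 16859 and 20305 in KO and 16304 and 15573 in WT. H2-Ab1 followed the same order at both ends among the tested states, except that Slpi and Inhba cells of WT tumours, at 5504 and 6633, averaged above Cp and Gas6 cells of WT tumours, at 5653 and 5566. The median fold change over the members was -0.31 in Slpi and Inhba cells, against 0.04 over all genes there, and 0.25 in Ifitm6 and Plac8 cells. In Mmp12 and Scd2 cells every member measured was lower in KO than in WT without overlap, beside 19.9% of all genes, and none of the 8 tested was called. Median depth in that state was 1031 and 1057 UMIs per cell in KO and 4040 and 2729 in WT, and the part of depth was not tested. H2-DMb1 and Ciita were the members with an unadjusted p under 0.05 in this state.

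**Figure D2:**
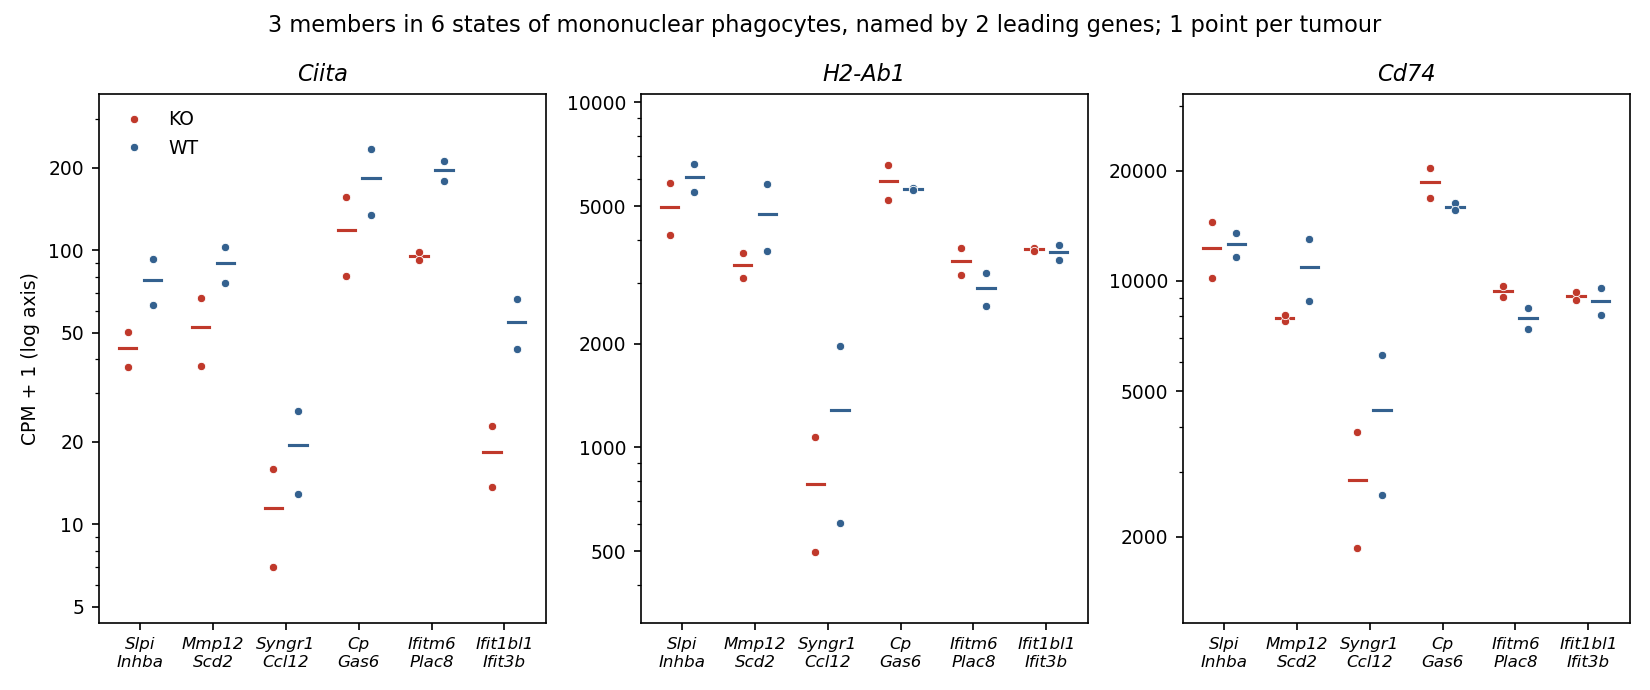
Ciita, H2-Ab1 and Cd74 in the 6 tested phagocyte states, in CPM plus 1 on a log axis, with KO left of WT, 1 point per tumour and a line at the group mean. The Ciita mean of KO tumours was below that of WT tumours in each state, while H2-Ab1 and Cd74 means lay on either side.

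With the 6 states weighted equally, Ciita stood at 43.9 and 63.8 CPM in KO tumours and 85.7 and 107 in WT tumours. The mix of these 6 states cannot move such a value, but the mix of cells within a state still can. The log2 ratio of the means was -0.84, against -0.89 with the states as they occurred. Cd74 stood at 9069 and 10300 in KO and 10664 and 8732 in WT, a log2 ratio of -0.002, against 0.24 with the states as they occurred. H2-DMb2 stood at 6.65 and 7.20 in KO and 8.24 and 11.2 in WT, a log2 ratio of -0.49. A 2 against 2 exact permutation test, two-sided, cannot go below p = 0.333, which is the value for Ciita and H2-DMb2. At state resolution 1.0 the log2 ratios were -0.88 for Ciita, -0.01 for Cd74 and -0.21 for H2-DMb2. The states too small to test are left out of the equally weighted values. The values with states as they occurred take in all phagocytes, so the sets of cells differ too. Among them, Ciita in mt-Tw and Impact cells was at 57.0 and 37.5 CPM (not TMM scaled) in KO, from 232 and 93 molecules, and at 59.9 and 174 in WT, from 2 and 9 molecules.

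In dendritic cells, H2-Oa had the largest difference of the 9 members. It had 136 and 187 CPM in KO dendritic cells and 72.2 and 69.7 in WT dendritic cells, from 127 and 120 molecules in KO and 31 and 10 in WT. Both KO values were above both WT values, and the log2 fold change of 1.17 ± 0.31 (SE) gave an adjusted p of 0.0993. No member was called by edgeR, beside 0.658% of the 6082 genes tested, and 0 by DESeq2, while 2 members had an unadjusted p under 0.05. All 9 members were tested, and their median log2 fold change was 0.25, against -0.02 over all genes.

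The classical chains of dendritic cells were higher in KO tumours without passing the test. H2-Ab1 had 9542 and 10240 CPM in KO and 7508 and 8632 in WT, and H2-Eb1 had 7471 and 7317 in KO and 5823 and 6584 in WT. Cd74 had 20201 and 21592 in KO and 17786 and 17981 in WT. The groups did not overlap for these genes, with log2 fold changes of 0.29, 0.25 and 0.23. In all, 5 members were higher in KO without overlap, beside 22.8% of genes. Ciita was the 1 member lower without overlap, beside 22.5% of genes, with 187 and 201 in KO and 228 and 383 in WT (-0.59 ± 0.27 SE, adjusted p = 0.333). H2-DMb2 had 155 and 199 in KO and 179 and 181 in WT, and overlapped. H2-Ob, the beta chain partner of H2-Oa and no member of the set, had 80.5 and 74.8 in KO and 39.6 and 41.8 in WT (0.95 ± 0.34 SE, adjusted p = 0.203).

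The dendritic markers moved with the groups in part. Marker levels here are CPM without TMM scaling. Of 11 markers, Ccr7 and Fscn1, genes of mature cells, stood at 1668 and 1152 (Ccr7) and 665 and 494 (Fscn1) in KO, and at 983 and 652 (Ccr7) and 411 and 211 (Fscn1) in WT. Ccl22, also a gene of mature cells, stood at 1108 and 595 in KO and 1238 and 550 in WT, with overlap. Xcr1, a marker of the cross-presenting subset, had 65.4 and 64.2 in KO and 48.2 and 19.2 in WT, without overlap. Clec9a, of the same subset, had 59.2 and 35.8 in KO and 36.8 and 19.2 in WT, with overlap, and Batf3 had 96.6 and 98.5 in KO and 96.5 and 89.5 in WT. Flt3 had 89.3 and 70.1 in KO and 39.0 and 57.6 in WT, without overlap. Zbtb46 (64.4 and 52.2 in KO, 32.15 and 38.4 in WT) and Cd209a (58.2 and 155 in KO, 45.9 and 38.4 in WT) did not overlap either. Snx22 and Siglech, at 13.8 or less, overlapped. All 11 markers together summed to 3884 and 2718 in KO and 2946 and 1682 in WT. The part of dendritic subsets in the results was not tested. T and NK markers, 0 of 11 of them held by 10% of the cells, summed to 103 and 92.5 in KO dendritic cells and 18.4 and 0.0 in WT dendritic cells. T and NK cells themselves had 6.95 and 9.23 CPM of H2-Oa in KO and 10.2 and 9.81 in WT, below all 4 dendritic values.

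Whether the KO effect in a class differed from that in phagocytes was tested directly, with the tumour as a block. For H2-Oa the KO effect in dendritic cells exceeded that in phagocytes by 1.71 ± 0.43 (SE) on the log2 scale, with an adjusted p of 0.0201, 1 of 9 members beside 0.518% of genes. The difference was 1.69 to 2.01 when tumours were left out in turn, and the adjusted p was 0.4 without KO tumour 1, 0.35 without KO tumour 2 and 0.0682 without WT tumour 1. For Ciita no difference between dendritic cells and phagocytes was called (0.21 ± 0.25 SE, adjusted p = 0.951). Between Xist-low cells and phagocytes Ciita differed by 1.28 ± 0.17 (SE), with an adjusted p of 0.00143, 1 of 9 members beside 14.5% of genes, and each leave-one-out fit kept this call. For endothelial cells (2.77% of genes called) and fibroblasts (1.22%) 0 members were called by edgeR, and H2-DMa in fibroblasts was the 1 member with an unadjusted p under 0.05. DESeq2 was not run on these differences. The mix of clusters among Xist-low cells, given below, differed between the groups, and its part in the Ciita difference was not tested.

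**Figure D3:**
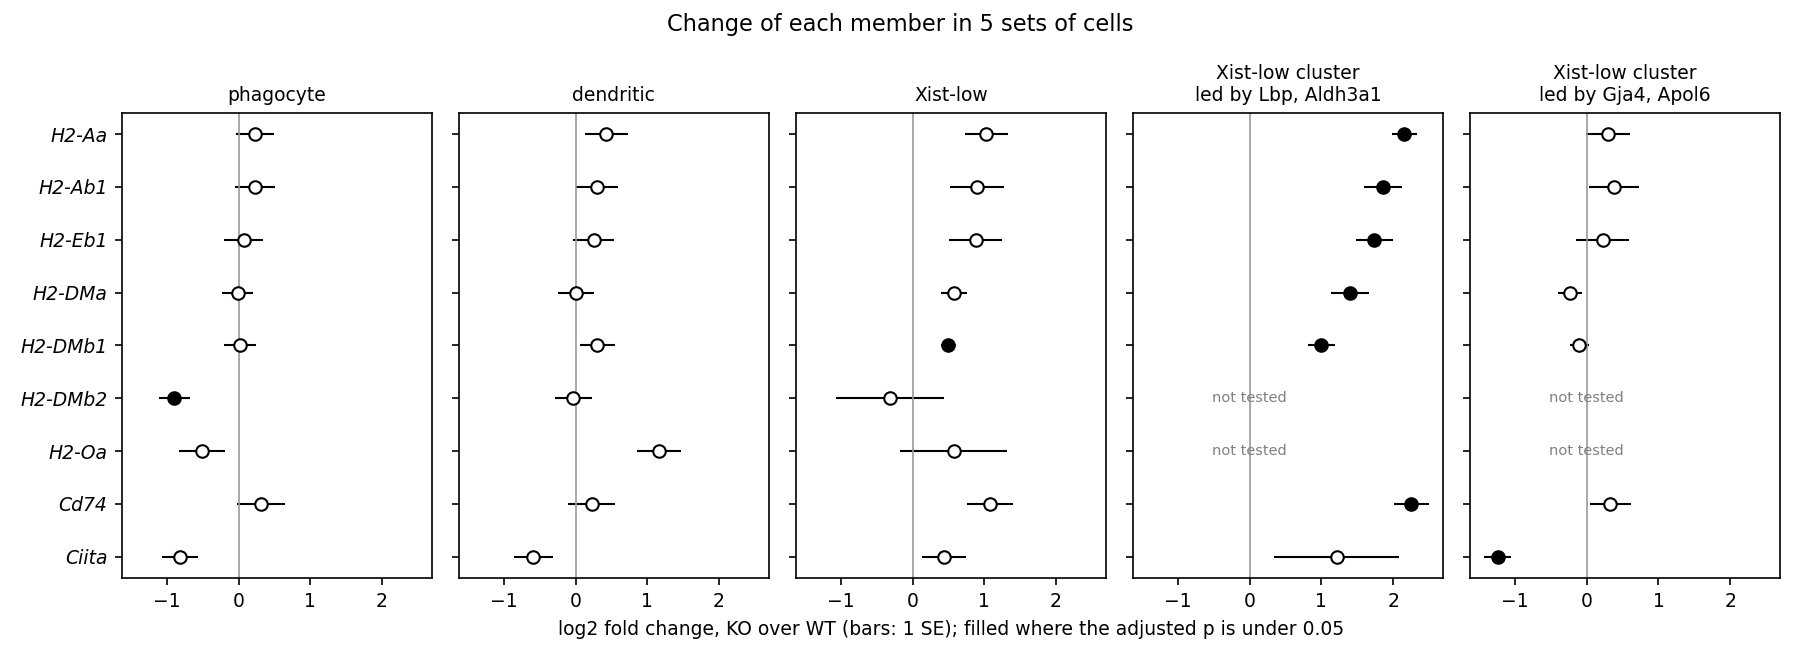
Log2 fold change of each member, KO over WT, with bars of 1 SE, in phagocytes, dendritic cells, Xist-low cells and the Xist-low clusters led by Lbp and Aldh3a1 and by Gja4 and Apol6. Filled points passed the adjusted threshold of 0.05: H2-DMb2 in phagocytes, H2-DMb1 in Xist-low cells, 6 members in the first cluster and Ciita in the second.

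In Xist-low cells the classical chains and Cd74 were at 0.789% to 3.003% of their phagocyte level in the same tumour, and H2-DMb1 rose in KO tumours. All 9 members were tested. Of them 1 was called, close to the share of 8.76% among the 18000 genes, and 6 had an unadjusted p under 0.05. DESeq2 called H2-DMa and H2-DMb1. The median log2 fold change was 0.58 over the members and -0.01 over all genes. H2-DMb1 had 49.8 and 46.2 CPM in KO and 33.6 and 34.6 in WT, without overlap, as in 29.7% of genes. Its log2 fold change was 0.50 ± 0.10 (SE), with an adjusted p of 0.0377, which was 0.207 without KO tumour 1, 0.130 without KO tumour 2 and 0.0777 with the tumour number as a block.

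Cd74 had 242 and 135 CPM in KO Xist-low cells and 111 and 66.9 in WT Xist-low cells. KO tumour 1 was the highest and WT tumour 2 the lowest, and the groups did not overlap. The log2 fold change was 1.08, with an adjusted p of 0.0827. H2-Aa had 96.6 and 53.1 in KO and 43.8 and 29.6 in WT (1.03, adjusted p = 0.0759). H2-Ab1 had 92.7 and 51.1 in KO and 51.6 and 25.5 in WT, with KO tumour 2 just below WT tumour 1, and H2-Eb1 overlapped in the same way. H2-DMa had 27.4 and 19.9 in KO and 14.3 and 17.4 in WT (0.58, adjusted p = 0.0914). Ciita had 4.30 and 3.72 in KO and 2.12 and 3.81 in WT, with overlap (0.44, adjusted p = 0.374), and was called without WT tumour 2 (0.91, adjusted p = 0.0386). H2-DMb2 and H2-Oa were at most at 0.44 CPM.

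RNA of leukocytes free in the suspension gives UMIs in cells that do not carry class II, so each member was set beside 8 leukocyte genes (C1qa, C1qb, C1qc, Tyrobp, Fcer1g, Laptm5, Lyz2 and Ptprc). These summed to 1.48% and 0.914% of their phagocyte level in KO Xist-low cells and 0.979% and 0.481% in WT Xist-low cells. KO tumour 1 was the highest and WT tumour 2 the lowest for these genes, as for Cd74 and H2-Aa, but WT tumour 1 stood above KO tumour 2 for the leukocyte genes and below it for Cd74 and H2-Aa. Relative to that, H2-Aa was 1.94 and 1.81 times as high in KO and 1.40 and 2.08 times in WT, and Cd74 1.63 and 1.43 times in KO and 1.15 and 1.75 times in WT. These ratios overlapped between the groups, and all 8 were above 1. H2-DMb1 stood further off, at 11.1 and 14.9 times in KO and 8.52 and 24.7 times in WT, and Ciita at 6.91 and 10.4 times in KO and 3.70 and 8.06 times in WT. Against the highest single leukocyte gene, H2-DMb1 was still 7.68 and 9.66 times as high in KO and 6.79 and 15.6 times in WT, while Cd74 was 1.13 and 0.93 times in KO and 0.91 and 1.11 times in WT. Markers of phagocytes, 7 of 14 held by 10% of Xist-low cells, summed to 410 and 325 CPM in KO and 282 and 119 in WT. With only the cells under 10 UMIs per 10000 of 6 leukocyte genes, 1297 and 2564 in KO and 8396 and 6951 in WT, the log2 fold change of Cd74 was 1.09 and that of H2-DMb1 0.50 (adjusted p = 0.0384).

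**Figure D4:**
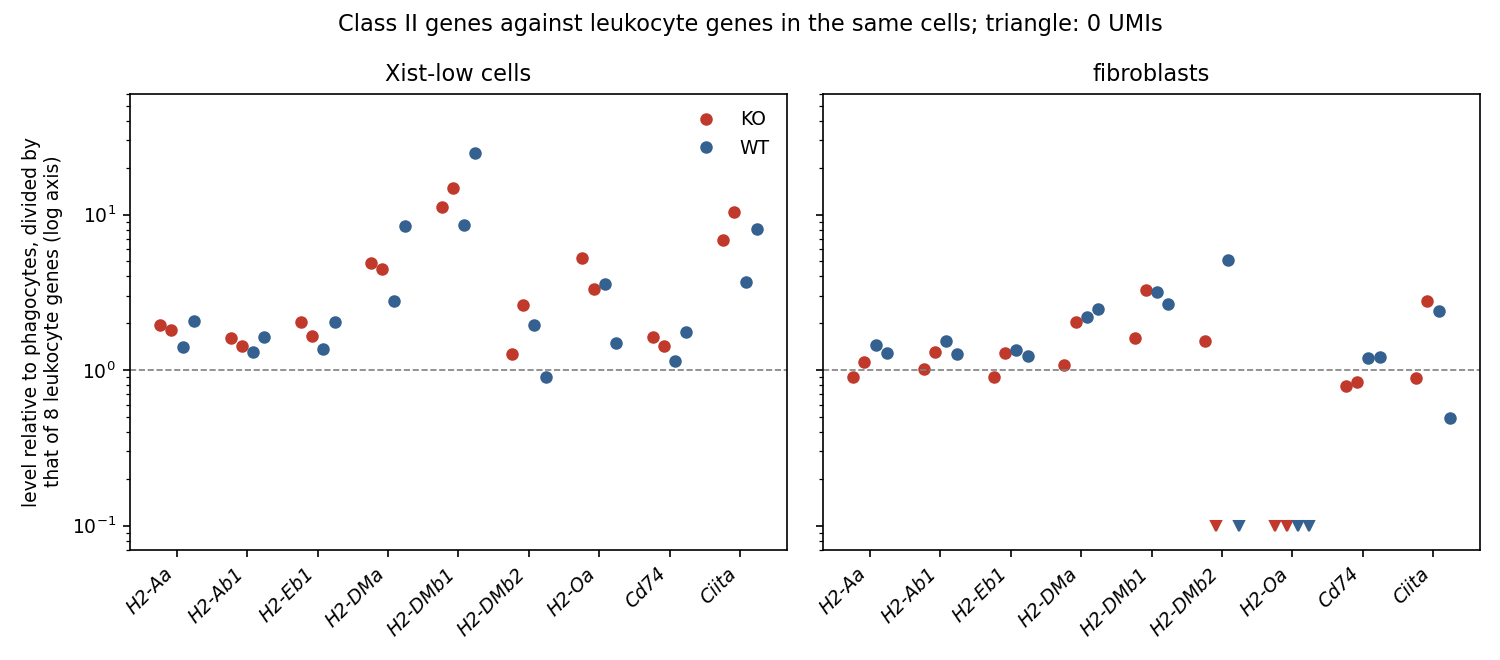
Level of each member relative to phagocytes of the same tumour, divided by the same measure of 8 leukocyte genes, in Xist-low cells and fibroblasts on a log axis, with KO points left of WT points and triangles for 0 UMIs. H2-DMb1 of Xist-low cells stood at 8.52 to 24.7, whereas H2-Aa and Cd74 stood between 0.788 and 2.08 in both classes.

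The Xist-low cells were made of 6 clusters whose shares differed between the groups. The cluster led by Gja4 and Apol6 held 74.0% and 66.7% of Xist-low cells in KO and 5.17% and 13.0% in WT. The cluster led by Lbp and Aldh3a1 held 2.57% and 1.86% in KO and 26.2% and 37.0% in WT. Each cluster was therefore also tested by itself, a step chosen after seeing the data. H2-DMb1, called in the whole class, had log2 fold changes of 1.00, -0.10, 0.10, 0.16, 0.18 and 0.20 in the 6 clusters, and was called in the Lbp and Aldh3a1 cluster alone.

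In the Lbp and Aldh3a1 cluster 6 of 7 members tested rose, beside 1.34% of genes called and 0.868% that rose. The KO side rested on 35 and 50 cells, against 2250 and 2623 in WT. Cd74 had 432 and 326 CPM in KO and 99.2 and 60.03 in WT, a log2 fold change of 2.25 ± 0.25 (SE) with an adjusted p of 0.00400. H2-Aa had 152 and 131 in KO and 35.4 and 27.9 in WT (2.16 ± 0.18 SE, adjusted p = 0.00175). Both genes kept their calls when any 1 tumour was left out. H2-Ab1 (1.86), H2-Eb1 (1.74), H2-DMa (1.39) and H2-DMb1 (1.00) also rose, with adjusted p of 0.0175, 0.02, 0.0376 and 0.0364. Without KO tumour 1 the members called numbered 2, and without KO tumour 2 they numbered 3. Ciita had 1.26 and 7.54 in KO and 1.04 and 2.84 in WT, and was not called. The 8 leukocyte genes were at 1.598% and 1.003% of their phagocyte level in KO cells of this cluster and at 0.994% and 0.521% in WT cells. H2-Aa was at 2.88 and 4.22 times that in KO, against 1.10 and 1.72 times in WT.

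In the Gja4 and Apol6 cluster Ciita fell, as 1 of 7 members tested beside 1.35% of genes. It had 4.74 and 4.24 CPM in KO, from 215 and 256 molecules, and 10.9 and 10.4 in WT, from 81 and 196 molecules. The 2 KO tumours and the 2 WT tumours were close to each other within their groups. The log2 fold change was -1.24 ± 0.19 (SE) with an adjusted p of 0.0233, and without KO tumour 1 it was -1.32 with an adjusted p of 0.177. Dexi had 23.9 and 26.4 in KO cells of this cluster and 20.1 and 20.03 in WT cells, a difference of the other sign (0.33, adjusted p = 0.227). Cd74 of the same cells had 255 and 146 in KO and 198 and 122 in WT, with overlap and a log2 fold change of 0.33. In the other 4 clusters edgeR called 0 members (0.399%, 1.2%, 0.528% and 2.44% of genes), with 0 to 3 at an unadjusted p under 0.05, and DESeq2 called 0.

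Single cells were then looked at for the sum of H2-Aa, H2-Ab1, H2-Eb1 and Cd74, among Xist-low cells of at least 10000 UMIs. At least 20 such UMIs per 10000 were held by 40 of 1194 cells of KO tumour 1 (3.35%, exact 95% binomial interval 2.40% to 4.53%) and by 27 of 2398 cells of KO tumour 2 (1.13%, 0.743% to 1.63%). In WT tumours they were held by 15 of 5337 cells (0.281%, 0.157% to 0.463%) and 9 of 4152 cells (0.217%, 0.099% to 0.411%). The intervals cover counting error only, and median depth of these cells was 41620 and 32988 UMIs in KO and 15368 and 16794 in WT. Of the cells so found, 38 and 25 in KO and 9 and 8 in WT held under 5 UMIs per 10000 of 6 leukocyte genes. In the Lbp and Aldh3a1 cluster the share was 10.7% (3 of 28 cells, interval 2.27% to 28.2%) and 11.4% (5 of 44 cells, 3.79% to 24.6%) in KO, and 0.123% (1 of 812 cells) and 0.286% (4 of 1397 cells) in WT. Over cells of any depth in that cluster it was 17.6% (6 of 34 cells) and 10.4% (5 of 48 cells) in KO and 0.178% (4 of 2246 cells) and 0.191% (5 of 2621 cells) in WT. The median cell of that cluster with at least 10000 UMIs held 4.56 and 2.68 class II UMIs per 10000 in KO and 1.77 and 0.76 in WT, while the highest held 43.8 and 53.1 in KO and 30.5 and 47.0 in WT. How far the few highest cells carried the cluster's fold changes was not tested. In the Gja4 and Apol6 cluster it was 3.69% and 1.25% in KO and 1.58% and 0.644% in WT, and the groups overlapped. Over all Xist-low cells of this depth, the median cell held 3.51 and 1.84 class II UMIs per 10000 in KO and 1.85 and 0.76 in WT, so KO tumour 2 and WT tumour 1 had about the same median while their shares differed.

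**Figure D5:**
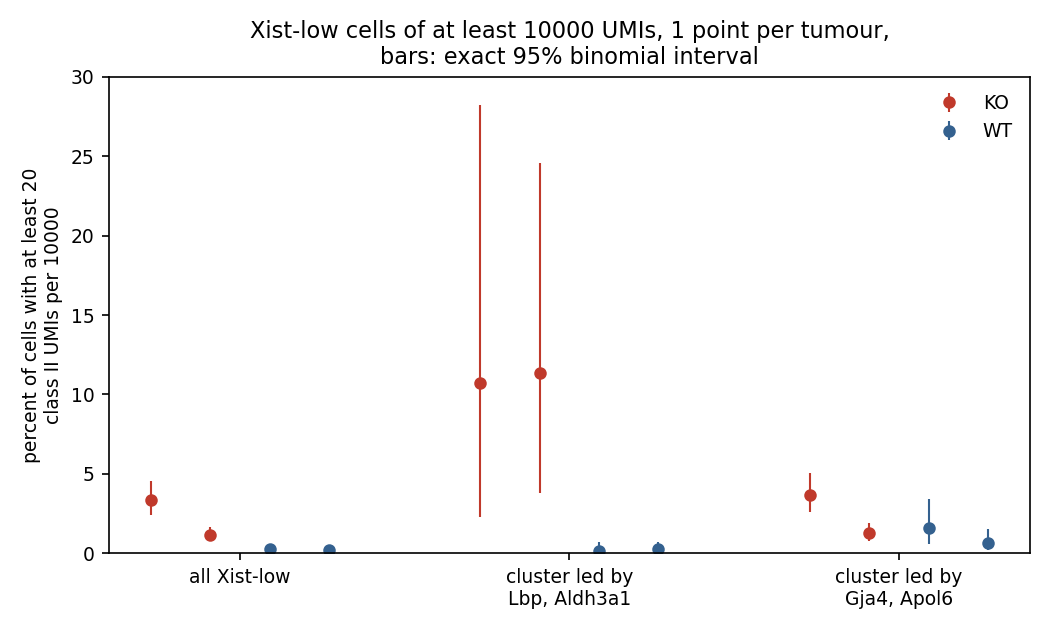
Percent of Xist-low cells of at least 10000 UMIs that held at least 20 UMIs per 10000 of H2-Aa, H2-Ab1, H2-Eb1 and Cd74 together, for all of them and for 2 clusters, with KO left of WT and exact 95% binomial intervals for counting error. The shares were 3.35% and 1.13% in KO and 0.281% and 0.217% in WT over all Xist-low cells, and the groups overlapped in the Gja4 and Apol6 cluster.

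Endothelial cells were tested although WT tumour 2 gave only 19 of them, with a minimum of 10 cells chosen after seeing the data. Cd74 had 828 and 1181 CPM in KO and 396 and 1161 in WT, and H2-DMb1 had 47.4 and 50.4 in KO and 18.0 and 65.0 in WT. WT tumour 1 was the lowest for both genes and WT tumour 2 among the highest, so the groups overlapped. Of 7 members tested, edgeR called 0 beside 1.82% of genes, DESeq2 called 0 and 0 had an unadjusted p under 0.05. Without WT tumour 2 the members called numbered 3. In WT tumour 2 the leukocyte genes stood at 11.6% of their phagocyte level, against 3.93% and 1.604% in KO and 1.55% in WT tumour 1. Relative to the leukocyte genes, Cd74 was 1.96 and 7.02 times as high in KO and 2.56 and 1.18 times in WT. Ciita had 15.4 and 29.1 CPM in KO, from 13 and 22 molecules, and 5.15 and 65.0 in WT, from 2 and 7 molecules. No H2-Oa molecule was seen, which allows up to 1.39 CPM over the 4 tumours.

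In fibroblasts the classical chains and Cd74 stood, relative to phagocytes, at 0.788 to 1.53 times the level that leukocyte genes had in the same cells. Cd74 had 224 and 109 CPM in KO and 189 and 185 in WT, and H2-Aa had 86.5 and 46.1 in KO and 73.4 and 72.0 in WT, so the WT values lay between the KO values. Relative to the leukocyte genes, Cd74 was 0.788 and 0.834 times as high in KO and 1.20 and 1.22 times in WT. Of 6 members tested edgeR called 0, as it did of all 11565 genes (0%), and DESeq2 called 0 members. H2-DMa was the 1 member with an unadjusted p under 0.05, with 11.6 and 12.6 in KO and 18.2 and 20.2 in WT, a log2 fold change of -0.67 and an adjusted p of 0.346. With only the cells under 10 leukocyte UMIs per 10000, the fold changes of H2-Aa and Cd74 changed sign, to 0.48 and 0.46. No H2-Oa molecule was seen, which allows up to 0.197 CPM over the 4 tumours.

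The genes that act before, beside and after class II were taken from fixed lists. Of 8 genes of the interferon gamma input, 1 rose in phagocytes, beside 10.1% of all genes called there in either direction. This was Socs1, a feedback inhibitor of the pathway, with 111 and 127 CPM in KO and 33.8 and 65.3 in WT (1.26, adjusted p = 0.0391). In Xist-low cells 2 of the 8 rose, beside 8.76% of all genes called. Irf1, a transcription factor induced by interferon gamma, had 383 and 411 in KO and 123 and 225 in WT (1.19, adjusted p = 0.0424). Socs1 had 95.01 and 116 in KO and 27.4 and 33.8 in WT (1.79, adjusted p = 0.00806), and it also rose in the Hist1h3b, Gm26917 and Ifit3 clusters (1.09, 1.96 and 1.51). In the Lbp and Aldh3a1 cluster, where 6 class II members rose, Irf1 rose by 1.08 (adjusted p = 0.0403). Jak1, a kinase of the receptor, rose in endothelial cells with 607 and 604 in KO and 291 and 251 in WT (1.14, adjusted p = 0.0413). In endothelial cells DESeq2 called 0 genes of this list, and edgeR called 1.82% of all genes.

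Within phagocyte states, calls in this input were as follows. In Slpi and Inhba cells, where Ciita fell, the receptor kinase gene Jak2 fell as well, with 70.1 and 80.3 CPM in KO and 186 and 157 in WT (-1.13, adjusted p = 0.000117). There DESeq2 called 0 genes of this list, edgeR called 1.59% of all genes, and WT tumour 1 gave only 31 cells. In Syngr1 and Ccl12 cells Socs1 rose, with 134 and 87.3 in KO and 18.4 and 39.6 in WT (2.02, adjusted p = 0.0280). In that state DESeq2 called 2 genes of the list, and edgeR called 1.24% of all genes. Whether these changes differed between states was not tested.

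Of 8 genes of the factors that bind the X and Y boxes, edgeR called 0 in phagocytes, with 0 at an unadjusted p under 0.05, and DESeq2 called 0. In Xist-low cells edgeR called 0 of them, with 1 at an unadjusted p under 0.05, and DESeq2 called 0. Of the 7 genes of antigen and invariant chain processing edgeR called 0 in phagocytes, with 4 at an unadjusted p under 0.05 and a median log2 fold change of 0.64, and DESeq2 called 5. Within Slpi and Inhba cells the lysosomal protease genes Ctsl, with 1908 and 1247 in KO and 527 and 782 in WT, and Lgmn, with 503 and 319 in KO and 178 and 243 in WT, rose (1.23 and 0.89). DESeq2 called 0 of the 7 genes in that state, and edgeR called 1.59% of all genes. Cd83, which slows the turnover of class II at the surface, rose in Cp and Gas6 cells, with 964 and 1595 in KO and 446 and 192 in WT (2.03, adjusted p = 1.22e-08). There DESeq2 called 0 of the 3 genes of class II turnover, and edgeR called 5.8% of all genes. Cd83 also rose in Ifitm6 and Plac8 cells, with 490 and 620 in KO and 228 and 259 in WT (1.17, adjusted p = 0.0130). In that state DESeq2 called 1 of the 3 genes, and edgeR called 1.12% of all genes.

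Of the 3 costimulatory genes, whose products act beside class II on T cells, 2 rose in phagocytes, where 10.1% of all genes were called. Cd80 had 63.5 and 53.9 in KO and 27.4 and 33.7 in WT (0.95, adjusted p = 0.0256), and Cd86 had 272 and 248 in KO and 123 and 160 in WT (0.88, adjusted p = 0.0364). Within each of the 6 states tested, edgeR and DESeq2 called 0 of these 3 genes. Their median log2 fold change was 0.14 in Slpi and Inhba cells and -0.28 in Mmp12 and Scd2 cells. In the other tested states it was 0.18 to 0.67. The part of the mix of states in the rise was not tested. In dendritic cells edgeR called 0 genes of these lists, with 8 at an unadjusted p under 0.05, and DESeq2 called 0. In fibroblasts edgeR called 0, with 4 at an unadjusted p under 0.05, and DESeq2 called 2, both of the interferon gamma input.

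Across 68 sums from 17 classes, states and clusters, the genes outside the set whose log2 levels were most like those of H2-Ab1 were Pld4, Cd86, Rassf4, Ctss and Cd40, with Pearson correlations of 0.93 to 0.94 among 12204 genes. H2-Eb1, H2-Aa and Cd74 correlated with H2-Ab1 at 0.996, 0.994 and 0.994. Ciita did so at 0.893, H2-DMb2 at 0.747 and H2-Oa at 0.577. The genes most like Ciita were Rnase6, Shtn1, Pik3r6, Tbc1d9 and Prcp, at 0.847 to 0.885. These correlations describe how levels run across cell kinds, and the sums share tumours and libraries.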

How the data were processed

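Cells of 4 digested MC38 tumours, 2 KO and 2 WT, were measured by droplet single-cell RNA sequencing. The values used are raw UMI counts per gene and barcode in the deposited filtered matrices. Per the labels' protocols the counts were made with Cell Ranger 5.0.1, whereas the file headers name version 6.1.2. Per the submitters' processing notes Seurat 5.1.0 and the mm10 genome were also used, while the sources used here give no further counting settings. Groups came from the labels.

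Cells entered with 300 or more genes, 500 or more UMIs and no more than 20% of UMIs from mitochondria. Scrublet's own threshold marked 0.00% and 0.009% of WT cells and therefore did not serve, so a fixed share of 0.8% per 1000 barcodes was removed from the top of the doublet score. Cells were clustered without the 9 members (scanpy 1.11.5, 2000 variable genes, 30 principal components, 15 neighbours, leidenalg 0.10.2 at resolution 1.0 for classes and 0.5 for states). A cluster was named where at least 3 markers of a list were each held by 10% of its cells at 2 times the mean of the other cells. Clusters under 1 Xist and 1 Ptprc UMI per 10000 were called Xist-low.

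Counts were summed per tumour and class, with at least 20 cells in every tumour, and tested with edgeR 4.0.16 (filterByExpr, TMM, quasi-likelihood, two-sided, adjusted over all genes). CPM values were computed here from the deposited counts. DESeq2 1.42.0 and the other alternatives were run on the same sums. The edgeR test of KO against WT was tried on simulated counts for phagocytes, dendritic cells and Xist-low cells, and the other steps were not simulated. The genes named were the 9 members, genes of pathway lists past the threshold, and the 5 genes most correlated with H2-Ab1 and with Ciita (log2 of CPM plus 1, genes of at least 10 CPM in some class). The members, lists and tests were chosen with earlier results of these data known. The tests by Xist-low cluster, the endothelial minimum of 10 cells, the crossed pairing, the sets without a cluster, the limit on leukocyte UMIs and the letters of the motifs were chosen after seeing the data. The labels do not say what a tumour number shares. Some genes that the rule names are not reported here.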

Additional observations from a re-analysis of the deposited data

Results flagged for a closer look

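For H2-Oa the KO effect differed between cell classes. H2-Oa had 136 and 187 CPM in KO dendritic cells and 72.2 and 69.7 in WT dendritic cells, while it had 2.45 and 3.30 in KO phagocytes and 3.92 and 4.24 in WT phagocytes. The effect in dendritic cells exceeded that in phagocytes by 1.71 on the log2 scale (edgeR, adjusted p = 0.0201), higher in both KO tumours in the first class and lower in both in the second.

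For Ciita the KO effect also differed between classes. Ciita had 4.30 and 3.72 CPM in KO Xist-low cells and 2.12 and 3.81 in WT Xist-low cells, with overlap, while it had 44.5 and 40.5 in KO phagocytes and 55.8 and 94.5 in WT phagocytes. The effect in Xist-low cells exceeded that in phagocytes by 1.28 (edgeR, adjusted p = 0.00143), as 1 of 9 members beside 14.5% of all genes. Within the Gja4 and Apol6 cluster of Xist-low cells Ciita fell, by 1.24 on the log2 scale. That cluster held 74.0% and 66.7% of Xist-low cells in KO and 5.17% and 13.0% in WT. The part of this mix in the difference between classes was not tested.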

How the results depend on the processing

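Over 1482 values of members under alternative settings, 1370 kept their side of the threshold with no called value changing sign, 34 lost a call, 77 gained one in the same direction and 1 changed sign and was called under the alternative only. In all 128 changed sign, 61 of them among the 551 values of the 5 classes, and apart from that 1 they were called in neither setting. That value was Cd74 in the Hist1h3b and Hist1h2ap cluster, 0.50 in the report's setting and -10.80 with free RNA subtracted.
The number of members called moved as follows. In phagocytes it was 1, against 2 with no filter on low counts and with the crossed pairing, 0 with free RNA subtracted, with doublets kept, at resolution 2.0 and without a shallow cluster of which 47.3% were scored as doublets, and 0 to 1 without 1 tumour. In dendritic cells it was 0, against 1 with no filter, with the replicate block and with the crossed pairing, and 0 to 2 without 1 tumour. In Xist-low cells it was 1, against 6 with no filter, 4 with the replicate block, 2 with the crossed pairing, DESeq2 or free RNA subtracted, and 0 to 5 without 1 tumour. In endothelial cells it was 0, and 0 to 3 without 1 tumour. Free RNA could not be subtracted there.
In Slpi and Inhba phagocytes it was 1, against 0 with the replicate block, with DESeq2 and without any 1 tumour. In Ifitm6 and Plac8 cells it was 1, against 0 with total-count scaling, no filter, the replicate block or DESeq2, and 0 to 1 without 1 tumour. In Syngr1 and Ccl12 cells it was 0, against 1 with no filter and 0 to 5 without 1 tumour; in Cp and Gas6 cells 0, and 0 to 1 without 1 tumour; and in Ifit1bl1 and Ifit3b cells 0, against 1 with the crossed pairing. Among Xist-low clusters, that of Lbp and Aldh3a1 had 6, and 2 to 6 without 1 tumour, and that of Gja4 and Apol6 had 1, and 0 to 4. The Cda and Cela1 cluster had 0, against 2 with no filter, 3 with the replicate block, 4 with the crossed pairing, 1 with free RNA subtracted and 0 to 4 without 1 tumour. The Hist1h3b cluster had 0, against 1 with no filter, 2 with the replicate block, 1 with free RNA subtracted and 0 to 4 without 1 tumour. The Gm26917 cluster had 0, against 1 with the crossed pairing and 0 to 4 without 1 tumour, and the Ifit3 cluster 0, against 2 with no filter and 0 to 2 without 1 tumour.
The members whose effect differed from that in phagocytes numbered 0 to 2 in dendritic cells, 1 to 2 in Xist-low cells and 0 to 2 in endothelial cells without 1 tumour, and the H2-Oa difference was 1.69 to 2.01. With states as they occur, in place of equal weights, the log2 ratio was 0.16 for H2-Aa, 0.16 for H2-Ab1, 0.24 for Cd74 and -0.96 for H2-DMb2. For H2-DMb2 it was -0.21 at state resolution 1.0 and -0.70 to -0.25 without 1 tumour, and for H2-Oa -1.47 to -0.46. Without thinning, the KO minus WT share of Xist-low cells with a UMI was 8.41 percentage points for Ciita, against 0.165 thinned, and 38.2 for Cd74, against 8.78. Against the highest leukocyte gene, the mean ratio was 1.02 for Cd74 in Xist-low cells and 1.81 for H2-DMb1 and 0.685 for Cd74 in fibroblasts. Same-numbered tumours deviated together with correlations of -0.584 to 0.038 by class, with 2 pairs, so the numbers were not taken to pair the tumours, and the crossed pairing was tried as well. The causes of these shifts were not tested.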

Other observations

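Outside the comparisons, the members also had UMIs in lymphocytes and neutrophils. In T and NK cells Cd74 stood at 284 and 187 CPM in KO tumours and 259 and 178 in WT tumours, without TMM scaling. In neutrophils Cd74 stood at 958 and 1106 in KO and 246 and 476 in WT, where WT tumour 1 gave 51 cells and 14 molecules. H2-Aa of neutrophils stood at 326 and 298 in KO and 70.2 and 127 in WT. These classes were not tested.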
